A study of Homo sapiens with 4 samples.

Results

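Voltage-gated sodium channel subunit genes were read from bulk polyA RNA sequencing of human neurons. The genes were listed by symbol: the pore-forming subunit genes SCN1A, SCN2A, SCN3A, SCN8A and SCN9A and the beta subunit genes SCN2B, SCN3B and SCN4B. All 8 were found among the 28307 gene symbols of the deposited tables. The cells, labelled i3N-WTC11 neurons, were excitatory neurons differentiated for 2 weeks from WTC11, an established line of induced pluripotent stem cells. Every library, controls included, carried dCas9-KRAB under the CAG promoter in an intron of CLYBL and was given lentivirus (multiplicity of infection near 3) and puromycin (0.5 ug/mL, 4 days) before collection at day 7 after the virus. The CRISPRi group (2 libraries) had lentiviral guide RNAs against 1 transposable element of the MIR family on chromosome 11, and the control group (2 libraries) had the empty guide vector. The labels describe 2 guides per element without tying a guide to a library, and describe the replicates as biologically independent. A single cell line was used, so no other genetic background was sampled.

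A voltage-gated sodium channel is one large pore-forming (alpha) subunit, which by itself opens on depolarization, passes sodium and then inactivates, joined by smaller beta subunits that tune gating and take part in cell adhesion. In the central nervous system the pore is mostly Nav1.1, Nav1.2, Nav1.3 or Nav1.6, the products of SCN1A, SCN2A, SCN3A and SCN8A. SCN3A and SCN2A are known as the early genes of the developing brain, whereas SCN1A and SCN8A gain weight with maturation. Nav1.7, Nav1.8 and Nav1.9, from SCN9A, SCN10A and SCN11A, are best known from peripheral sensory and sympathetic neurons. The first 4 are called central and the last 3 peripheral here.

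The 3 deep libraries held 39325038 to 44839748 counts, whereas control replicate 1 had 944993, so that even the shallowest deep library was 41.6 times deeper. On the CPM scale (counts divided by the library total and set to a common total), 1 count of control replicate 1 is worth 1.06. All 7 pan-neuronal markers had counts in every library and summed to between 10625 and 10848 CPM in the deep libraries, with 9296 CPM for control replicate 1. Markers of dividing cells (6 genes) summed to 251 CPM in control replicate 1 against 38.5 to 41.6 CPM elsewhere, led by TOP2A and MKI67. The 6 cortical markers summed to 42.3 CPM in control replicate 1 against 32.5 to 34.4 CPM elsewhere, with NEUROD6 at 0 counts in every library. Among 8 peripheral sensory and autonomic markers POU4F1 (388 to 442 CPM) and PRPH (272 to 332 CPM) led, and CALCA had 0 counts. The labels say excitatory and give no region. The 4 astrocyte markers summed to 0.534 to 1.06 CPM and the 7 muscle markers to 0 to 1.47 CPM. The 4 oligodendrocyte lineage markers summed to between 26.0 and 30.3 CPM, with SOX10 at 0. LIN28A made up nearly all of the 13.8 to 21.3 CPM of the 3 pluripotency markers. In bulk samples fewer cells of a type and less RNA per cell cannot be told apart.

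The 4 pore genes SCN3A, SCN2A, SCN1A and SCN9A lie in 1288 kb of chromosome 2 (165087526 to 166375987, hg38), and their coding sequences are similar enough for reads to be shared. Over the longest principal coding sequence of GENCODE release 29, SCN2A and SCN3A matched at 84.4% of aligned bases and SCN1A and SCN2A at 83.8%. SCN8A, on chromosome 12 (51591233 to 51812864), matched SCN9A at 72.6% and SCN1A at 74.2%.

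Exact sharing over the length of a read was a small part of each gene. Of all distinct 75-base windows in its GENCODE transcripts, SCN3A shared 3.4% with another of the sodium channel genes described here, SCN2A 2.01%, SCN9A 1.73% and SCN1A 0.968%. SCN8A, SCN2B, SCN3B and SCN4B shared 0 windows. Nothing in the labels or files tells how shared reads were counted. SCN1A-AS1, an antisense RNA that overlaps SCN1A and SCN9A, had 2 counts in control replicate 2 and 0 in the other 3 libraries. Whether the counting used strand is likewise not told.

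SCN3A, the gene of the fetal-type channel Nav1.3, was the main pore gene in every library. Levels of different genes are compared on the authors' FPKM scale (fragments per kilobase of transcript, scaled to the library), because transcript lengths differ. The column has no heading in the files and was read as FPKM from its values. SCN3A stood at 21.7 and 20.5 FPKM in the CRISPRi libraries (replicates 1 and 2, in this order throughout) against 18.0 and 20.9 FPKM in the controls. That level exceeded 81.4% of the 17079 genes with FPKM above 0 in the 3 deep libraries. SCN2A, which encodes Nav1.2 of axons, stood at 6.29, 5.86, 6.61 and 6.13 FPKM in the same order. The ratio of SCN3A to SCN2A was 2.73 in control replicate 1 and 3.41 to 3.49 elsewhere. SCN8A, which encodes Nav1.6 of the mature axon initial segment and nodes of Ranvier, stood at 4.49, 4.33, 4.14 and 4.74 FPKM. The 2 groups overlapped for each of these 3 genes. SCN1A, whose Nav1.1 is best known from inhibitory interneurons, was the lowest member at 0.211 and 0.127 FPKM in CRISPRi and 0 and 0.153 FPKM in control. Its counts were 127, 70, 0 and 80. The 0 in control replicate 1 allows a level of up to 3.17 CPM at 3 counts. That is above the 1.68 to 2.83 CPM of SCN1A in the other libraries, which predict 2.08 counts there. The 0 therefore cannot tell absence of SCN1A from the level of those libraries.

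**Figure D1:**
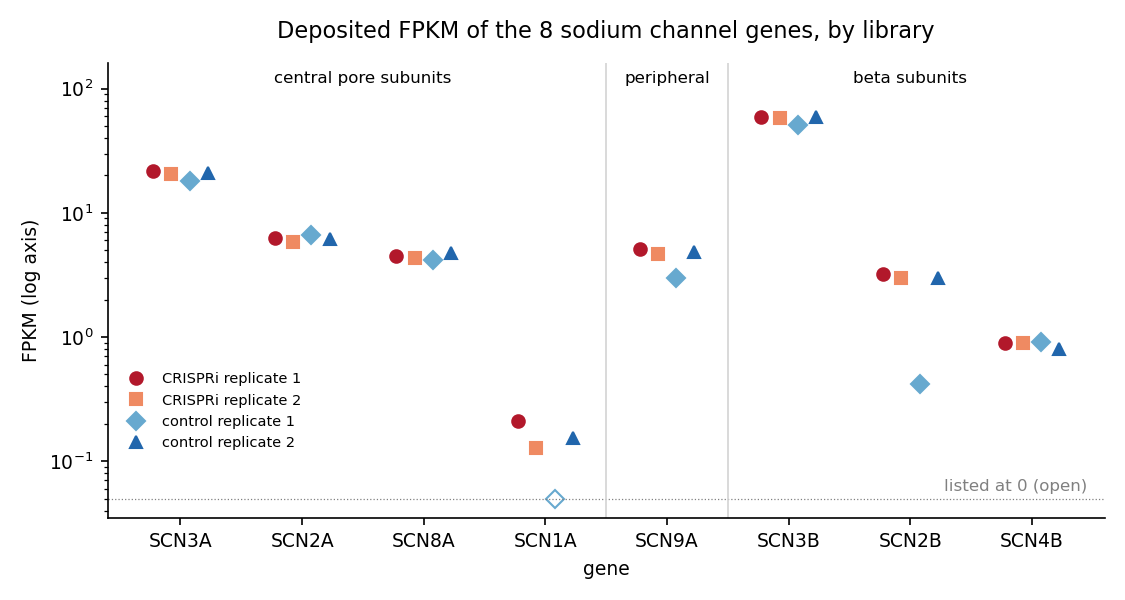
Deposited FPKM (log axis) of the 8 sodium channel genes, 1 point per library, with an open point where a gene is listed at 0. SCN3B and SCN3A lead their classes in every library, SCN1A is lowest in every library, and control replicate 1 stands apart for SCN2B at 0.416 FPKM and for SCN9A at 3.00 FPKM.

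SCN9A was the highest of the 3 peripheral pore genes in every library. Its level was 5.11 and 4.62 FPKM in CRISPRi, 3.00 and 4.82 FPKM in control, with control replicate 1 the low library. In the deep libraries it lay below SCN2A and 1.02 to 1.14 times above SCN8A. Of the other peripheral genes, SCN10A, the Nav1.8 gene, had 1 count in CRISPRi replicate 1 and 0 in the other 3 libraries. SCN11A, the Nav1.9 gene, had 45 and 59 counts in the CRISPRi libraries against 0 and 62 in the controls, or 0.145 to 0.226 FPKM in the deep libraries, where SCN1A stood at 0.127 to 0.211 FPKM. SCN7A, which encodes the sodium-sensing channel Nax, had a level of 0.808 to 0.851 FPKM in the deep libraries, and of 0.31 FPKM from 2 counts in control replicate 1. SCN4A, the skeletal muscle gene, had 0, 3, 0 and 1 counts.

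Central genes made up most of the pore signal. As a share of the summed FPKM of the 4 central and 3 peripheral pore genes, they held 86.1% and 86.4% in CRISPRi and 90.6% and 86.4% in control. The group means were 86.3 ± 0.221% (SD, n = 2) and 88.5 ± 2.99% (SD, n = 2). With 2 libraries against 2, the smallest p of an exact two-sided permutation test is 0.333, and the shares are given without one. SCN3A alone held 56.5% to 57.5% of the pore signal in the 4 libraries. SCN9A held 9.42% in control replicate 1 and 13% to 13.5% elsewhere. In raw counts the central share of control replicate 1 was 90.4%, from 264 of 292 counts, with a Wilson 95% interval of 86.5% to 93.3%. The deep libraries lay at 85.7% to 86.1%, just under that interval, which covers counting error only.

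**Figure D2:**
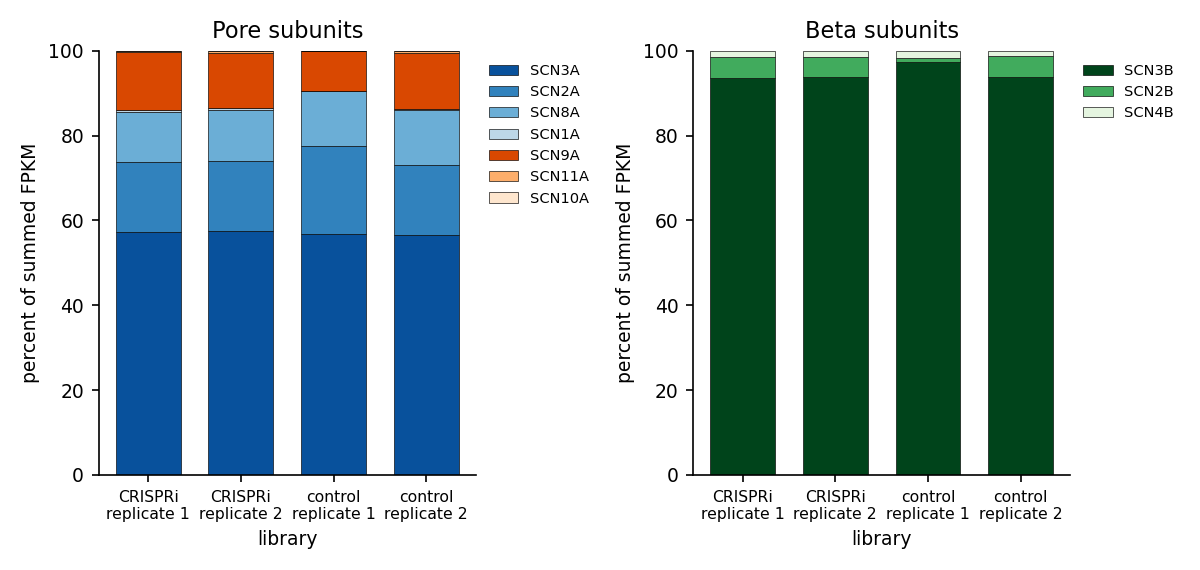
Percent of summed FPKM held by each pore gene (left, 7 genes, blue central and orange peripheral) and each of the 3 beta genes (right), 1 bar per library. SCN3A holds 56.5% to 57.5% of the pore signal, SCN3B 93.5% to 97.5% of their summed beta signal, and the bars of the 3 deep libraries are nearly alike.

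SCN3B was the highest of the 8 genes and the highest of the 3 beta genes. It encodes beta3, which associates with the pore without a covalent bond and is known from the developing brain. SCN3B stood at 59.2 and 58.4 FPKM in CRISPRi and 51.0 and 58.6 FPKM in control, above 94% of the 17079 genes. SCN2B, whose beta2 protein is linked to the pore by a disulfide bond, stood at 3.21 and 2.97 FPKM in CRISPRi and 0.416 and 3.01 FPKM in control. The low value rests on 2 counts, against 599 to 728 counts in the deep libraries. SCN4B, the gene of the other disulfide-linked subunit, beta4, stood at 0.888 and 0.891 FPKM in CRISPRi and 0.916 and 0.806 FPKM in control. Of the summed FPKM of the 3 beta genes SCN3B held 97.5% in control replicate 1 and 93.5% to 93.9% elsewhere. The sum of these 3 was 1.65 times the pore sum in control replicate 1 and 1.67 to 1.75 times elsewhere.

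By median FPKM over the 4 libraries the order was SCN3B, SCN3A, SCN2A, SCN9A, SCN8A, SCN2B, SCN4B and SCN1A. The ranges of neighbours did not overlap for 5 of the 7 neighbouring pairs. SCN9A and SCN8A overlapped, with SCN9A higher in 3 of 4 libraries, and so did SCN2B and SCN4B, with SCN2B higher in 3 of 4. In both pairs the library with the opposite order was control replicate 1.

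The sequence upstream of the starts differed widely in CG content between members. RefSeq promoter windows on GRCh38.p14 were at hand for 6 of the 8 genes and for 35116 promoters in all. In the 250 bases before the start, SCN8A held 45 CG dinucleotides (the letters CG, the same on both strands), a number reached by 0.589% of all promoters. SCN9A held 22 and SCN4B 17, SCN2B 0, and the median promoter 11. Each of the 2 windows of SCN2A held 1, as did 1 of the windows of SCN1A, the other holding 2; 14.7% of promoters held at most 1. The window of SCN4B belongs to a start inside the deposited span of the gene. The same holds for 1 window of SCN1A and 1 window of SCN2A (not the one shown). The window of SCN9A overlaps the end of its span. SCN8A and SCN2A are shown because they are central pore genes of neighbouring level (4.14 to 4.74 and 5.86 to 6.61 FPKM) with a large contrast in CG. The windows are chr12:51590983-51591232 (plus strand) for SCN8A and chr2:165239164-165239413 (plus strand) for SCN2A, with CG in capitals. Which start these neurons used was not tested.
SCN8A: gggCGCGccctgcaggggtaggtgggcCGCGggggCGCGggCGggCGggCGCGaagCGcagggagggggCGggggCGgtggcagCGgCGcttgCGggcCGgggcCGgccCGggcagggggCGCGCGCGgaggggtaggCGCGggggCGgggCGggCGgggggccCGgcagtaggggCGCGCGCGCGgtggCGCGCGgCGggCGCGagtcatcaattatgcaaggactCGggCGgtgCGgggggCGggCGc
SCN2A: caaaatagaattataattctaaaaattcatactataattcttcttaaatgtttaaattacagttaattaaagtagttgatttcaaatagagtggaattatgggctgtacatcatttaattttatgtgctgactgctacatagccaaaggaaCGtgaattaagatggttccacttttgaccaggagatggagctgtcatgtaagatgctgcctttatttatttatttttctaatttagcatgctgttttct

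CRISPRi was compared with control to read the transcriptome when the element was targeted. No change passed the test for any of the 8. In edgeR's quasi-likelihood test, Benjamini-Hochberg adjusted over 15708 tested genes, 0 of 8 were called at an adjusted p of 0.05, where 0.0255% of all tested genes were called (4 genes, 0.0255% lower and 0% higher in CRISPRi). At an unadjusted p under 0.05 the 8 genes also counted 0, against 0.961% of all genes. The smallest unadjusted p was 0.311, for SCN3B, and every adjusted p was 1.00. DESeq2 and limma-voom also called 0 of 8. All 8 passed the filter on low counts. CPM values of the 2 groups did not overlap for 0 of the 8, against 34.3% of all tested genes.

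The log2 fold changes of the pore genes (CRISPRi over control) were small where counts were high. SCN3A averaged 194 ± 7.70 CPM in CRISPRi against 181 ± 16.4 CPM in control (SD, n = 2 each); its log2 fold change was 0.097 (95% interval -0.13 to 0.33). SCN2A was at 54.6 ± 2.78 CPM and 57.7 ± 3.63 CPM (SD, n = 2 each), a change of -0.036 with an interval of -0.26 to 0.19. SCN8A was at 51.6 ± 1.35 CPM and 52.6 ± 4.12 CPM (SD, n = 2 each), a change of -0.057 with an interval of -0.29 to 0.17. Over these 3 genes the outer bounds of the intervals were a 1.26-fold rise, for SCN3A, and a fall to 0.819 times, for SCN8A. SCN9A was at 48.6 ± 3.46 CPM and 38.9 ± 13.2 CPM (SD, n = 2 each), a change of 0.16 with an interval of -0.29 to 0.60. SCN1A, at 2.26 ± 0.812 CPM and 1.02 ± 1.44 CPM (SD, n = 2 each), had a change of 0.38 and an interval of -1.21 to 1.96, or 0.433 to 3.89 times.

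The beta genes lie on chromosome 11, as the element does, but on the other arm. SCN4B (118133377 to 118152823) and SCN2B (118162806 to 118176639) are neighbours 70.5 and 70.6 Mb from the nearer of the 2 intervals stated for the element (47605296 to 47605575 and 47608036 to 47608220), and SCN3B (123629188 to 123654624) is 76 Mb away; all 3 are on the minus strand. SCN3B averaged 355 ± 3.33 CPM in CRISPRi against 330.2 ± 31.4 CPM in control (SD, n = 2 each); its log2 fold change was 0.11 (95% interval -0.13 to 0.35). SCN4B was at 4.04 ± 0.00405 CPM and 3.93 ± 0.422 CPM (SD, n = 2 each), a change of 0.12 with an interval of -0.67 to 0.91. SCN2B was at 15.6 ± 0.881 CPM and 8.67 ± 9.27 CPM (SD, n = 2 each), a change of 0.28 with an interval of -0.73 to 1.29. The fit gives a library less weight where its count of the gene is low, whereas the group mean does not. At a gene with many counts, control replicate 1 still weighs on the fit. The log2 fold change of SCN3B was 0.11 with all 4 libraries and 0.015 without that control. For 6 of the 8 genes the interval lay within a 2-fold change in either direction, against 68.7% of all tested genes, and SCN1A and SCN2B were the exceptions. The fold change was positive for 6 of 8, against 52.7% of tested genes, and the median was 0.11 against 0.0090 over all tested genes.

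**Figure D3:**
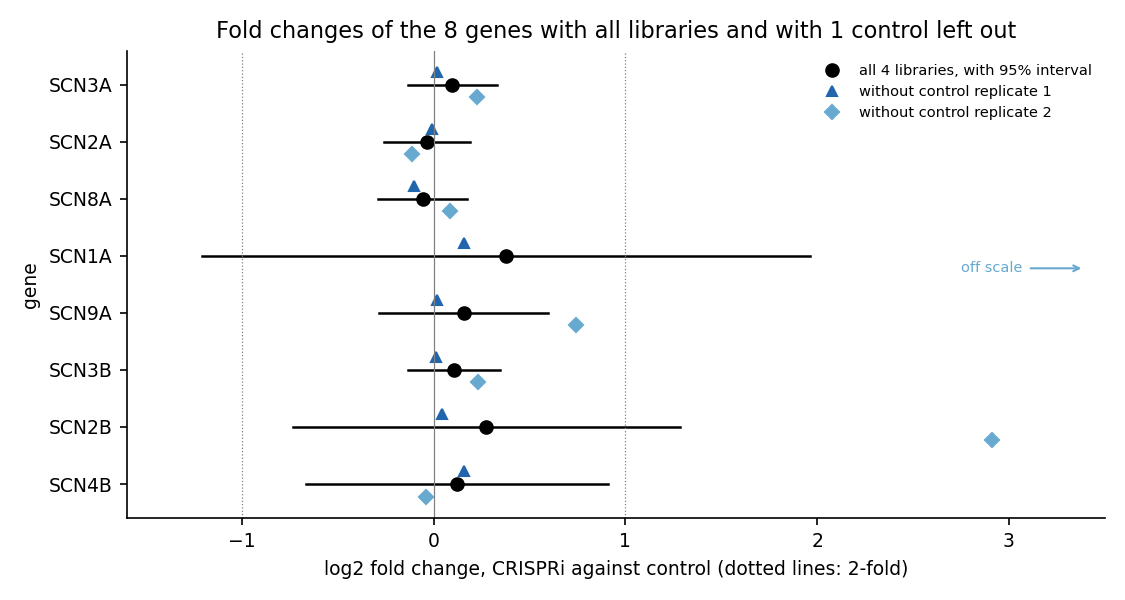
Log2 fold change of CRISPRi over control for the 8 genes, black points with 95% intervals for all 4 libraries, triangles without control replicate 1 and diamonds without control replicate 2. Without control replicate 1 all 8 lie between -0.10 and 0.16, whereas SCN2B (2.91) and SCN9A (0.74) move far out without control replicate 2; SCN1A is then off the scale because its remaining control count is 0.

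The size of these fold changes depended on control replicate 1. Without it the log2 fold changes were 0.019 for SCN3A, -0.0091 for SCN2A, -0.10 for SCN8A, 0.017 for SCN9A and 0.16 for SCN1A. They were 0.015 for SCN3B, 0.042 for SCN2B and 0.16 for SCN4B, and 0 of the 8 were called, against 0.659% of 16232 tested genes. Without control replicate 2, where control replicate 1 stands alone and is assumed to vary like the CRISPRi pair, 2 of the 8 were called higher in CRISPRi, against 8.58% of 16064 tested genes. These were SCN2B (2.91, edgeR adjusted p = 0.00798) and SCN9A (0.74, edgeR adjusted p = 0.0381).

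Control replicate 1 itself differed from the other 3 libraries at some channel genes by more than counting error. SCN2B had 2 counts there where the deep libraries predict 14.7, so that the deep level was 7.33 times higher (counting interval 2.03 to 60.6). SCN9A was at 29.6 CPM there, with an exact Poisson 95% interval of 19.7 to 42.8 CPM, below its 46.2 to 51.1 CPM in the deep libraries. SCN3B was at 308 CPM with an interval of 274 to 345 CPM, below its 352 to 357 CPM. The intervals of SCN1A, SCN2A, SCN3A, SCN8A and SCN4B reached the deep libraries. So 3 of 8 lay below all deep libraries beyond counting error, against 5.7% of tested genes, and 0 of 8 above, against 9.54%. SCN7A, with 2 counts, had a ratio of 3 (counting interval 0.826 to 24.8).

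As a ratio to the mean of the deep libraries, control replicate 1 stood at 0.87 for SCN3B, 0.874 for SCN3A, 0.939 for SCN8A and 1.1 for SCN2A, and at 0.611 for SCN9A and 0.137 for SCN2B. Its pan-neuronal markers stood at 0.868 by the same measure, its sensory and autonomic markers at 0.887 and its markers of dividing cells at 6.19. The part of these in the channel values was not tested. The control group holds only 1 other library, so a feature of the empty vector and a feature of this library cannot be told apart from it alone; in CPM, control replicate 2 lay between the CRISPRi libraries at SCN1A, SCN2A, SCN3A, SCN9A, SCN2B and SCN3B, above both at SCN8A and below both at SCN4B.

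**Figure D4:**
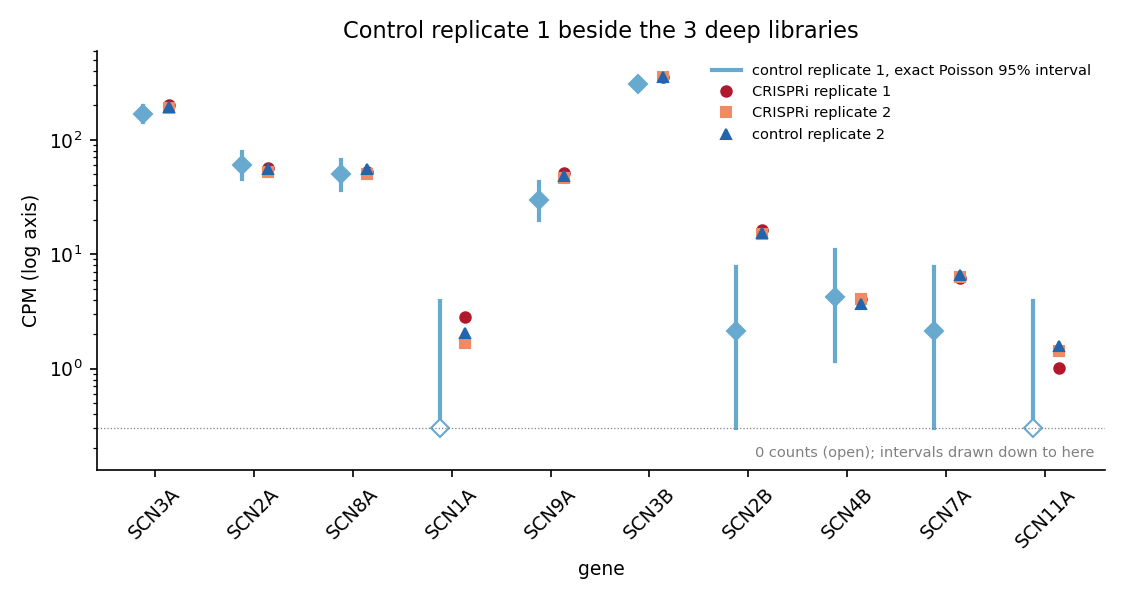
CPM (log axis) of 10 sodium channel genes in control replicate 1 (diamond with exact Poisson 95% interval, open at 0 counts) beside the 3 deep libraries. SCN2B, SCN9A and SCN3B lie below the deep libraries beyond the interval, and the others overlap them.

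Genes that place, carry or regulate the channel were read from a list of 22, and 0 of the 22 tested were called (0.0255% of all genes). The median log2 fold change was 0.080 against 0.0090 over all tested genes, and 1 of 22 had an unadjusted p under 0.05, against 0.961%. The fold change was positive for 18 of 22, against 52.7% of all tested genes, and control replicate 1 lay below the deep libraries beyond counting error for 8 of 22, against 5.7%. The gene with the smallest p was CSNK2A1, the catalytic subunit of casein kinase 2, which phosphorylates the ankyrin-binding motif of sodium channels. CSNK2A1 was at 239 and 235 CPM under CRISPRi, against 208 and 122 CPM for the controls, so that control replicate 2 was the low library (log2 fold change 0.63, edgeR adjusted p = 1.00). Without control replicate 1, where control replicate 2 stands alone, the log2 fold change of CSNK2A1 was 0.96. FGF14 and FGF12, intracellular FGF homologous factors that bind the channel's tail, came next. FGF14 was at 13.3 and 12.3 CPM under CRISPRi, against 13.8 and 8.57 CPM for the controls (log2 fold change 0.46), and FGF12 at 41.8 and 40.8 CPM against 36.0 and 36.7 CPM (0.19). In CPM, which is not scaled to length, the ankyrin gene ANK2 (1324 to 1523 CPM) and the calmodulin gene CALM3 (1440.2 to 1559 CPM) were among the 3 highest. Without control replicate 2, where control replicate 1 stands alone, the log2 fold changes were 0.22 for ANK2, 0.27 for NFASC and 0.34 for ATP1B1. REST, the repressor that is known to act on SCN2A and was named after its values were seen, was at 3.48 and 4.19 CPM under CRISPRi, against 8.47 and 3.69 CPM for the controls, the value in control replicate 1 resting on 8 counts.

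SCN3B had both the highest mean CPM and the smallest p of the 8, and the genes with the most similar profile to it were EFR3B, ERC2 and PLCL1. Their distances, over 4 libraries on the log2(CPM + 1) scale, were 0.00697, 0.00732 and 0.00861. A profile over 4 libraries separates few genes: 1620 of 9971 genes at a mean of at least 10 CPM lay within 0.1 of SCN3B.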

How the data were processed

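PolyA RNA of 4 libraries (paired-end, 75 bp) was analysed from the tables deposited by the authors, 1 per library. Each held a raw read count per gene row and an unlabelled value taken to be FPKM, both computed by the authors and deposited; its ratio to CPM gives lengths of 4537 to 13338 bases for the 8 genes. The submitters' processing notes name the build hg38, edgeR and limma; for the aligner, counter and strand, not given in the sources used here, nothing is assumed. The counts were summed per symbol over all rows.

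Groups were compared with edgeR 4.0.16 (R 4.3.3) by its robust quasi-likelihood F test after filterByExpr and TMM scaling. Group was the only term, with a Benjamini-Hochberg threshold of 0.05. The 95% intervals come from the F statistic and are approximate. For SCN2A the interval is narrower than its unadjusted p of 0.789 in that edgeR test would give. Neither pair of replicates was a duplicate (chi-square per degree of freedom 11.1 in CRISPRi, 11.5 in control). FPKM was described and not tested. The script was tested on simulated data. Alternatives were other scalings and filters, DESeq2 1.42.0, limma-voom (limma 3.58.1), a replicate block, each library left out, thinning, and primary chromosomes only; for partner genes these were chosen after seeing the data. The genes and lists were chosen with earlier results of these data known. Named genes are the 8, other channel genes and SCN1A-AS1, partners that were called or had the 3 smallest p or 3 highest levels, the 3 nearest profiles, and leading markers; NEUROD6, CALCA, SOX10, NFASC, ATP1B1 and REST were named after their values were seen. Coding sequences were aligned with Biopython 1.88. Protein sequences were not used here. Some genes under this rule, and a stretch of coding sequence, are not reported here.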

Additional observations from a re-analysis of the deposited data

How the results depend on the processing

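The 8 channel genes had 0 calls under each scaling, filter, tool, thinning (6 of 8 tested), the contig choice and the replicate block; leaving out single libraries gave 0 to 2 calls higher in CRISPRi, the 2 without control replicate 2, and 0 lower. Genes of the whole table called higher (0) came to 1 by DESeq2, 17 under the replicate block and, leaving out single libraries, 2 to 580. Those called lower (4) came to 11 by DESeq2, 2 by limma-voom, 25 under the replicate block and, leaving out single libraries, 15 to 798. Of the 22 partners, 1 was called under the replicate block, where 17 genes higher and 25 lower were called among 15708 tested. The central share in CRISPRi (86.3%) was 85.9% on raw counts and 85.7% after thinning. Among 102 alternative values of the 8 genes, 97 had the direction and call reported, 2 gained a call and 3 turned sign. SCN2A was at 0.13 after thinning, and on leaving out single libraries SCN8A ranged between -0.10 and 0.084 and SCN4B between -0.038 and 0.16. SCN11A turned to 0.21 by DESeq2, 0.25 by limma-voom and 0.30 under the replicate block. On leaving out single libraries SCN11A ranged between -0.38 and 8.14 and SCN7A between -0.050 and 1.59; fitted values against 0 counts depend on the prior count. The cause was not tested. The labels give both groups the same replicate numbers without pairing them, and same-numbered deviations correlated at -0.040 over 9975 genes. At control replicate 1, 3 counts equal 3.17 CPM, which limits SCN1A, SCN4B and SCN2B.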
